A study of Mus musculus with 6 samples.

Results

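The genes described here are the aryl hydrocarbon receptor (AhR) gene Ahr, its partner Arnt, and 5 genes that the receptor is known to switch on, Ahrr, Cyp1a1, Cyp1a2, Cyp1b1 and Tiparp. They were chosen by name as genes of this pathway, with earlier results of these data known and no measured value in the rule, and were found by their Ensembl identifiers among the 55357 genes of a liver count table, so that 7 of 55357 genes are members. Liver RNA was sequenced from wild-type male C57BL6/J mice aged 8-9 weeks that received either esculetin, a plant coumarin, or only the vehicle 2.5% Tween-80, by gavage on 7 days. Both groups were fed a control diet (10% of kcal from fat) on days 1 to 4 and then, for 3 days, a high-fat diet (HFD; 60% of kcal from fat), so the diet is common to both and no library without HFD entered the comparison. There were 3 libraries of each group, and each was made from the livers of 2 mice, so the spread given below is between pools of 2 mice. The labels disagree on the dose, with 180 mg/kg/d in the titles and protocol of the esculetin libraries and 90 mg/kg/d under their treatment entry. The names of the esculetin count columns also carry 180. Because the labels disagree, no dose is attached to the group here.

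AhR is a ligand-activated transcription factor that waits in the cytosol in a complex with the chaperone HSP90 and its co-chaperone p23. When a planar aromatic compound binds, the receptor enters the nucleus, pairs with ARNT and binds DNA elements with the core GCGTG. In liver it is best known for switching on the cytochrome P450 genes Cyp1a1 and Cyp1a2, which encode enzymes that oxidise aromatic hydrocarbons and amines. Cyp1a1 is close to silent in liver without a ligand and serves as the classical read-out of AhR activity, whereas Cyp1a2 is expressed constitutively in hepatocytes.

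The Cyp1a1 and Cyp1a2 genes lie head to head on chromosome 9 of GRCm39, Cyp1a1 on the plus strand at chr9:57595211-57611107 and Cyp1a2 on the minus strand at chr9:57584196-57590986, with 13957 bases between their RefSeq starts. The 1500 bases before the RefSeq start of Cyp1a1 hold 12 copies of GCGTG, counted on both strands, and 10 of them lie between 800 and 1400 bases before the start. Among windows of the same length at 21770 protein-coding genes, taken from GENCODE's canonical starts, the median was 1 copy and 0.0689% held 12 or more. Of the 12 copies, 7 carry the longer form TNGCGTG, each counted among the copies of GCGTG, and 15.5% of the windows held at least 1 of that form. All 12 lie inside the annotated Cyp1a1 gene and 6 of them in an annotated exon, since GENCODE also lists longer transcripts that start further upstream. The 7 copies of the longer form and the copy nearest the start are printed below with 12 bases on each side, read 5′ to 3′ on the strand that carries the motif, and the capitals mark GCGTG. They are shown because Cyp1a1 had the most copies among the 6 members whose start was matched and its transcript level is followed below.
Cyp1a1, 1384 bases before the start, minus strand, chr9:57603512-57603516: catctgaacttgGCGTGtctaactcaacc
Cyp1a1, 1208 bases before the start, minus strand, chr9:57603688-57603692: agggccgggtttGCGTGcgatgctcggct
Cyp1a1, 1061 bases before the start, plus strand, chr9:57603835-57603839: ctcccccagctaGCGTGacagcactggga
Cyp1a1, 986 bases before the start, minus strand, chr9:57603910-57603914: tgccccggagttGCGTGagaagagcctgg
Cyp1a1, 897 bases before the start, minus strand, chr9:57603999-57604003: ttcctgaggctaGCGTGcgtaagcctgct
Cyp1a1, 824 bases before the start, plus strand, chr9:57604072-57604076: tcctgctgtctcGCGTGgatccttcctcc
Cyp1a1, 493 bases before the start, minus strand, chr9:57604403-57604407: gagtccaagctcGCGTGagaagcgcaacg
Cyp1a1, 54 bases before the start, plus strand, chr9:57604842-57604846: tcagataaggagGCGTGgccaacagacac

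The nearer 250 bases were compared for the 6 members with an entry in the RefSeq promoter table, whose sequences were placed on GRCm39 by exact match. In this window Ahrr held 3 copies of GCGTG, Arnt, Cyp1a1, Cyp1b1 and Tiparp held 1 each and Cyp1a2 held 0, beside 28.2% of 27025 promoters with at least 1 copy and 8.71% with at least 2. In the longer 1500-base window Cyp1b1 held 10 copies (0.202% of the 21770 windows held as many), Ahrr and Tiparp 6 each (1.96%), Cyp1a2 2 (34.5%) and Arnt 1 (62.6%). As for Cyp1a1, the whole 250-base windows of Arnt and Tiparp lie inside the annotated GENCODE genes. These genes begin further upstream, at chr3:95341365 for Arnt and chr3:65435320 for Tiparp. The copies near the RefSeq start of the feedback genes Ahrr and Tiparp and of Cyp1b1 are printed in the same way, to set beside those of Cyp1a1.
Ahrr, 107 bases before the start, minus strand, chr13:74440553-74440557: tattgaaagggcGCGTGgcaggcagggac
Ahrr, 82 bases before the start, minus strand, chr13:74440528-74440532: ggacaaggatgtGCGTGcgccctctgccg
Ahrr, 27 bases before the start, minus strand, chr13:74440473-74440477: gcggggcggctcGCGTGctggggtggggc
Cyp1b1, 76 bases before the start, plus strand, chr17:80022562-80022566: ttagggggtgggGCGTGaggggcgggacg
Tiparp, 170 bases before the start, minus strand, chr3:65435698-65435702: cgcctcccgtgcGCGTGctccggacggag

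The stretch just upstream of the annotated GENCODE gene of Cyp1a2, the most abundant member, whose GENCODE start lies upstream of the RefSeq start used above, holds 0 copies of GCGTG in 202 bases and is printed to contrast with Cyp1a1.
Cyp1a2, minus strand, chr9:57590987-57591188: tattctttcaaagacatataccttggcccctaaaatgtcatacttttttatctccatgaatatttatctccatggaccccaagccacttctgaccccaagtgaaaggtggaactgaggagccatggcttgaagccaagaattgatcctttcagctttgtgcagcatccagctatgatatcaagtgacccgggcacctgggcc
A copy of the motif is a description of the letters and does not show that the receptor binds there, and no copy says only that these letters are not in this window.

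**Figure D1:**
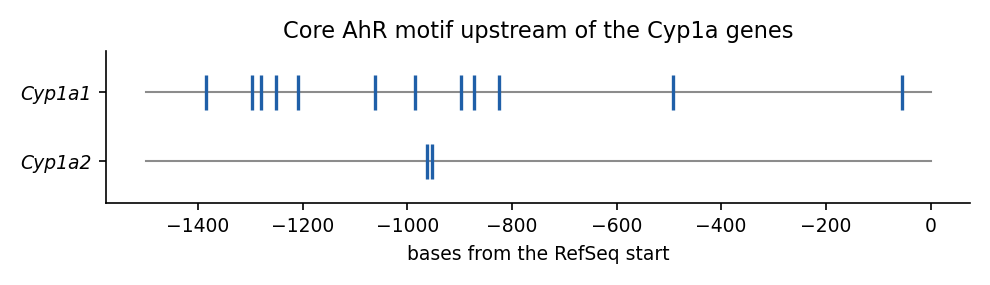
Positions of GCGTG in the 1500 bases before the RefSeq starts of Cyp1a1 and Cyp1a2. The horizontal axis is the distance from the start in bases and each mark is 1 copy on either strand. Cyp1a1 has 12 copies, 10 of them between 800 and 1400 bases before the start, and Cyp1a2 has 2.

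The libraries had total counts between 27957713 and 34920922, and all 3 esculetin libraries had higher totals than any vehicle library. Levels are given as CPM, in which edgeR's TMM factors put all libraries on 1 scale, and 3 counts corresponded to between 0.0864 and 0.109 CPM. The chi-square per gene between replicates was at least 24.2, far above sampling noise, and each library was counted once. The 5 hepatocyte markers Alb, Apoa1, Apob, Ttr and Tat were abundant in every library, with a summed level of 83186 to 86973 CPM with vehicle and 78287 to 86109 CPM with esculetin. Following the study's thresholds, a gene counted as called where its fold change exceeded 1.5 and its unadjusted p in edgeR's quasi-likelihood test was below 0.05. In bulk liver, fewer cells of a type and less RNA per cell cannot be told apart.

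None of the members changed with esculetin by these thresholds. Ahrr had too few counts to be tested, and of the 6 members tested 0 were called, beside 3.13% of the 14433 genes tested. In edgeR's quasi-likelihood test 0 of the 6 had an unadjusted p below 0.05, beside 11.9% of all genes, and 0 had an adjusted p below it, beside 0.0416%. The counts were also 0 with DESeq2 and limma-voom. In 0 of the 6 members did the esculetin libraries lie wholly above or below the vehicle libraries, beside 17.4% of all genes (9.2% higher and 8.24% lower). The group mean on the model's log2 scale was higher with esculetin for 4 members and lower for 2, with a median log2 fold change of 0.10, beside -0.0080 over all genes tested. The lowest unadjusted p among the members was 0.358 and the lowest adjusted p was 0.753 (edgeR's quasi-likelihood test, Benjamini-Hochberg adjustment over all genes tested). These misses do not show that the levels were equal, and the interval of each difference is given with each gene.

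**Figure D2:**
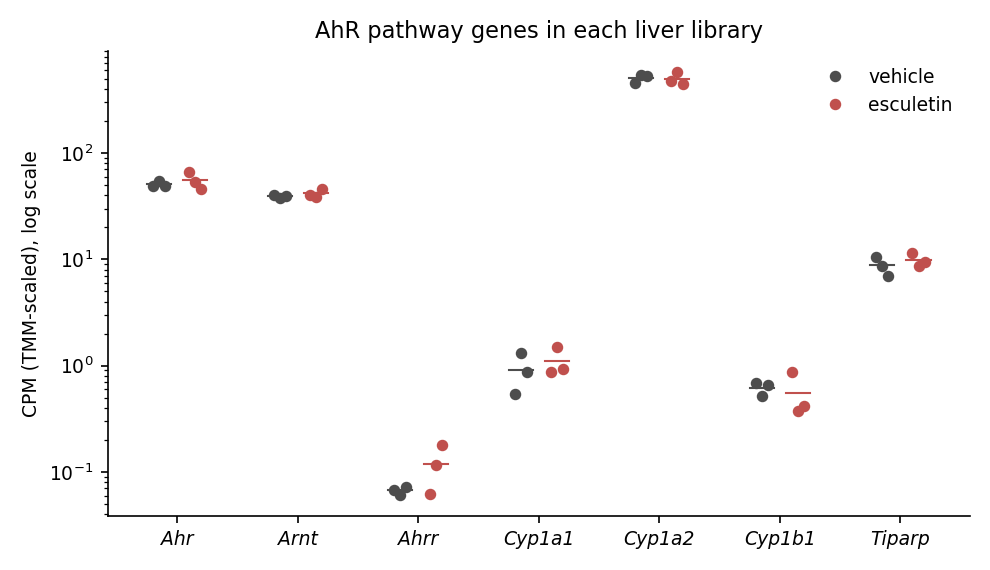
Level of the 7 members in each liver library. The vertical axis is CPM on a log scale, each point is 1 library (dark, vehicle; red, esculetin) and the short line is the group mean. Cyp1a2 lies between 443 and 578 CPM, Ahr and Arnt between 38.0 and 66.3 CPM, and Cyp1a1 and Cyp1b1 at or below 1.498 CPM, with overlapping groups for every member tested.

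Among themselves the members differed far more than the groups did. Levels of different genes were compared as CPM per kilobase of annotated exon. On this scale Cyp1a2 stood highest, with a mean of 247 over the 6 libraries (217 to 284), and Ahr followed with 8.58 (7.34 to 10.7). Arnt had 4.32 (4.06 to 4.94) and Tiparp 0.815 (0.607 to 1.01) on the same scale. Cyp1a1 had 0.258 (0.139 to 0.384), Cyp1b1 0.0811 (0.0518 to 0.120), and Ahrr was last with a mean of 0.00985. The ranges of neighbours in this order did not overlap, although those of Cyp1a1 and Cyp1b1 came close, and the exon length of Cyp1a1, 3903 bases, includes the first exons of its longer transcripts.

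Ahr, which encodes the receptor, lies on the minus strand at chr12:35547973-35585057. Its level was 48.8, 55.0 and 49.1 CPM in the vehicle libraries and 66.3, 53.8 and 45.4 CPM in the esculetin libraries. The esculetin libraries enclosed the vehicle libraries, with esculetin replicate 1 the highest of all and esculetin replicate 3 the lowest. The group levels were 51.0 ± 3.46 and 55.2 ± 10.5 CPM (SD, n = 3 each), and the log2 fold change was 0.11 (SE 0.13, 95% interval -0.17 to 0.40, adjusted p = 0.775, edgeR's quasi-likelihood test). The interval corresponds to a fold change between 0.888 and 1.32. The difference rested on esculetin replicate 1, without which the log2 fold change was -0.039. A lncRNA on the opposite strand, Gm48236, shares 127 bases of exon with Ahr and had 7 counts in all 6 libraries together.

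Arnt encodes the partner that AhR needs to bind DNA, and it also pairs with the hypoxia-inducible factors. It lies on the plus strand at chr3:95341365-95404551. Its level was 39.8, 38.0 and 39.7 CPM with vehicle and 40.4, 38.2 and 46.2 CPM with esculetin. The groups overlapped, and only esculetin replicate 3 lay clearly above the rest. Mean levels were 39.2 ± 1.05 and 41.6 ± 4.12 CPM (SD, n = 3 each), with a log2 fold change of 0.09 (SE 0.089, 95% interval -0.11 to 0.29, adjusted p = 0.753, edgeR's quasi-likelihood test). As a fold change this interval ran from 0.924 to 1.22.

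Ahrr encodes the AhR repressor, a receptor relative that competes for ARNT and is itself a target of AhR. It lies on the minus strand at chr13:74359237-74440462. It had 2 counts in every vehicle library and 2, 4 and 6 counts in the esculetin libraries, which is 6 and 12 counts per group. Ahrr did not pass edgeR's filter on low counts and was not tested. In 4 of the 6 libraries the count was below 3, so no fold change is given, and these counts do not show whether the level differed. The promoter of Ahrr held the most copies of GCGTG near the start among the 6 members matched, as printed above, and the gene had the lowest level of all 7.

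Tiparp encodes a mono-ADP-ribosyltransferase that is induced by AhR and restrains it in turn. It lies on the plus strand at chr3:65435320-65463365. Its level was 10.6, 8.71 and 6.92 CPM with vehicle and 11.6, 8.56 and 9.43 CPM with esculetin. The groups overlapped, with vehicle replicate 3 the lowest library. On average they were 8.75 ± 1.85 and 9.85 ± 1.54 CPM (SD, n = 3 each), and the log2 fold change was 0.17 (SE 0.18, 95% interval -0.23 to 0.57, adjusted p = 0.759, edgeR's quasi-likelihood test). The interval corresponds to a fold change between 0.852 and 1.48. Annotated lncRNAs on the opposite strand share 1600 and 169 bases of exon with Tiparp, and whether the counting used strand is not given in the sources used here, so their reads may be included.

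Cyp1a1, the inducible P450 of the pair, was barely detected in either group. It had 16, 43 and 24 counts in the vehicle libraries and 28, 52 and 31 counts in the esculetin libraries, or 0.544, 1.32 and 0.875 CPM against 0.870, 1.498 and 0.925 CPM. The groups overlapped over most of their range, and replicate 2 was the highest library in both. The group levels were 0.913 ± 0.389 and 1.10 ± 0.348 CPM (SD, n = 3 each). The log2 fold change was 0.26 (SE 0.40, 95% interval -0.64 to 1.16, adjusted p = 0.847, edgeR's quasi-likelihood test). As a fold change this interval ran from 0.643 to 2.23, and larger inductions fall outside it. Without vehicle replicate 1 the log2 fold change was -0.0029, and without esculetin replicate 2 it was -0.030.

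Cyp1a2, the constitutive P450 of the pair, was the best measured member, with 13250 counts or more in every library. Its level was 451, 539 and 530 CPM with vehicle and 473, 578 and 443 CPM with esculetin. The esculetin libraries held both the highest and the lowest value. Mean levels were 507 ± 48.6 and 498 ± 70.9 CPM (SD, n = 3 each), and the log2 fold change was -0.02 (SE 0.11, 95% interval -0.28 to 0.23, adjusted p = 0.959, edgeR's quasi-likelihood test). As a fold change the interval of Cyp1a2 ran from 0.824 to 1.17, the narrowest of the 3 P450 genes.

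Cyp1b1 encodes another P450 of the family, which is known for its expression outside hepatocytes. It lies on the minus strand at chr17:80008966-80022532. It had 20, 17 and 18 counts with vehicle and 28, 13 and 14 counts with esculetin, which is 0.680, 0.521 and 0.656 CPM against 0.870, 0.375 and 0.418 CPM. Esculetin replicate 1 was the highest library and the other esculetin libraries were the lowest, so the groups overlapped. The group levels were 0.619 ± 0.0857 and 0.554 ± 0.274 CPM (SD, n = 3 each), with a log2 fold change of -0.16 (SE 0.44, 95% interval -1.14 to 0.82, adjusted p = 0.923, edgeR's quasi-likelihood test). At this depth only fold changes below 0.452 or above 1.77 fell outside the interval, and without esculetin replicate 2 the log2 fold change was 0.057.

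Because Cyp1a1 and Cyp1a2 share a locus and a receptor, the ratio of their reads was also taken within each library, where scaling plays no part. Per 1000 reads of Cyp1a2 there were 1.21, 2.45 and 1.65 reads of Cyp1a1 with vehicle and 1.84, 2.59 and 2.09 with esculetin. The groups overlapped, and the mean log2 ratio was higher with esculetin by 0.34, less than its pooled SD of 0.40. An exact two-sided permutation test gave p = 0.4, where 0.1 is the smallest p that 3 against 3 libraries allow.

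**Figure D3:**
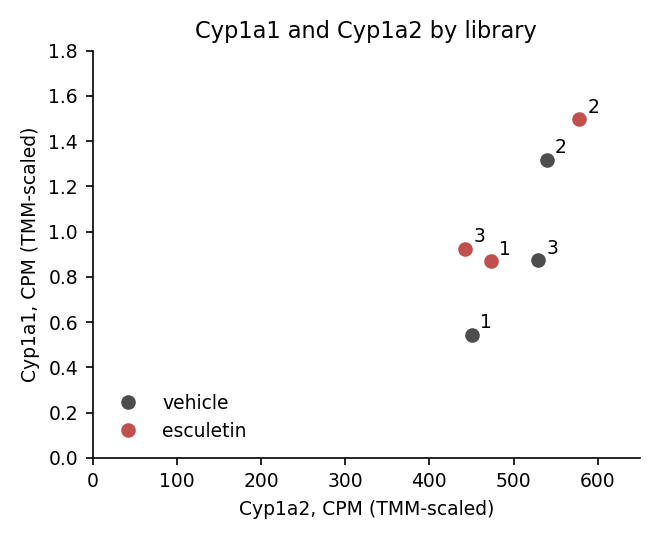
Cyp1a1 level (vertical axis, CPM) against Cyp1a2 level (horizontal axis, CPM) in the 6 libraries, 1 point each, coloured by group and numbered by replicate. Cyp1a1 stays at or below 1.498 CPM while Cyp1a2 lies between 443 and 578 CPM, and the groups overlap on both axes.

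Other genes of the AhR battery, the set of detoxifying and metabolic genes that AhR ligands are known to raise, were read beside the core members, and no difference between a battery gene and a core member was tested. Of 22 such genes listed from general knowledge, 20 were tested and 5 rose with esculetin by both thresholds, while 0 fell. Over all genes tested 1.37% were called higher and 1.76% lower, but the list was drawn up with earlier results of these data known, so its count is no independent evidence of a direction. Of the 5, the 4 genes Cyp2a5, Nqo1, Gsta2 and Fmo2 are described here, and with edgeR 1 of the 5, Cyp2a5, had an adjusted p below 0.05, a number that depends on the tool and the filter. The list's median log2 fold change was 0.20, with 16 genes higher and 4 lower, beside -0.0080 over all genes tested. Several of these genes have other known regulators, for example NRF2 for Nqo1 and Gsta2 and the constitutive androstane receptor for Cyp2a5, and the part of any of these was not tested.

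Cyp2a5, the coumarin hydroxylase of mouse liver, was at 422, 342 and 373 CPM with vehicle and at 1336, 1333 and 1138 CPM with esculetin. Every esculetin library lay far above every vehicle library. The log2 fold change was 1.74 (SE 0.10, 95% interval 1.51 to 1.98, adjusted p = 0.000267, edgeR's quasi-likelihood test). Reads of Cyp2a5 and its near-identical paralog Cyp2a4 may have been split or shared by the counting, so the value is uncertain for the single gene.

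Nqo1 encodes a quinone reductase and is a classical member of the battery. Its level was 4.46, 2.64 and 2.19 CPM with vehicle and 7.02, 9.65 and 7.34 CPM with esculetin, without overlap. Mean levels were 3.09 ± 1.20 and 8.00 ± 1.43 CPM (SD, n = 3 each), and the log2 fold change was 1.37 (SE 0.26, 95% interval 0.79 to 1.95, adjusted p = 0.132, edgeR's quasi-likelihood test). Over the alternative analyses its adjusted p lay between 1.39e-07 and 0.473, on both sides of 0.05.

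Gsta2 encodes a glutathione S-transferase. It was at 8.10, 3.71 and 4.23 CPM with vehicle and 9.88, 18.3 and 17.2 CPM with esculetin, and esculetin replicate 1 lay just above the highest vehicle library. Its log2 fold change was 1.501 (SE 0.31, adjusted p = 0.136, edgeR's quasi-likelihood test), and reads may be shared with the paralog Gsta1. Over the alternative analyses this adjusted p lay between 5.16e-11 and 0.473. Fmo2 encodes a flavin-containing monooxygenase. It was at 21.4, 17.6 and 22.0 CPM with vehicle and 29.5, 31.5 and 47.2 CPM with esculetin, and the groups did not overlap. Its log2 fold change was 0.83 (SE 0.17, adjusted p = 0.136, edgeR's quasi-likelihood test). DESeq2 gave an adjusted p of 0.000801, and over the alternatives it lay between 7.82e-08 and 0.473.

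Beyond the called genes, Selenbp1, which encodes a selenium-binding methanethiol oxidase, and Ugdh, which makes the sugar donor for glucuronidation, had an unadjusted p under 0.05 with smaller changes. Their log2 fold changes were 0.40 (unadjusted p = 0.00101) and 0.37 (unadjusted p = 0.00177, both edgeR's quasi-likelihood test). Inmt, the most abundant of the list that was not called, was at 950 ± 110 and 1083 ± 109 CPM (SD, n = 3 each; unadjusted p = 0.111, edgeR's quasi-likelihood test). Aldh3a1, an aldehyde dehydrogenase that AhR ligands are known to induce, had 2 counts in all 6 libraries and was not tested.

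**Figure D4:**
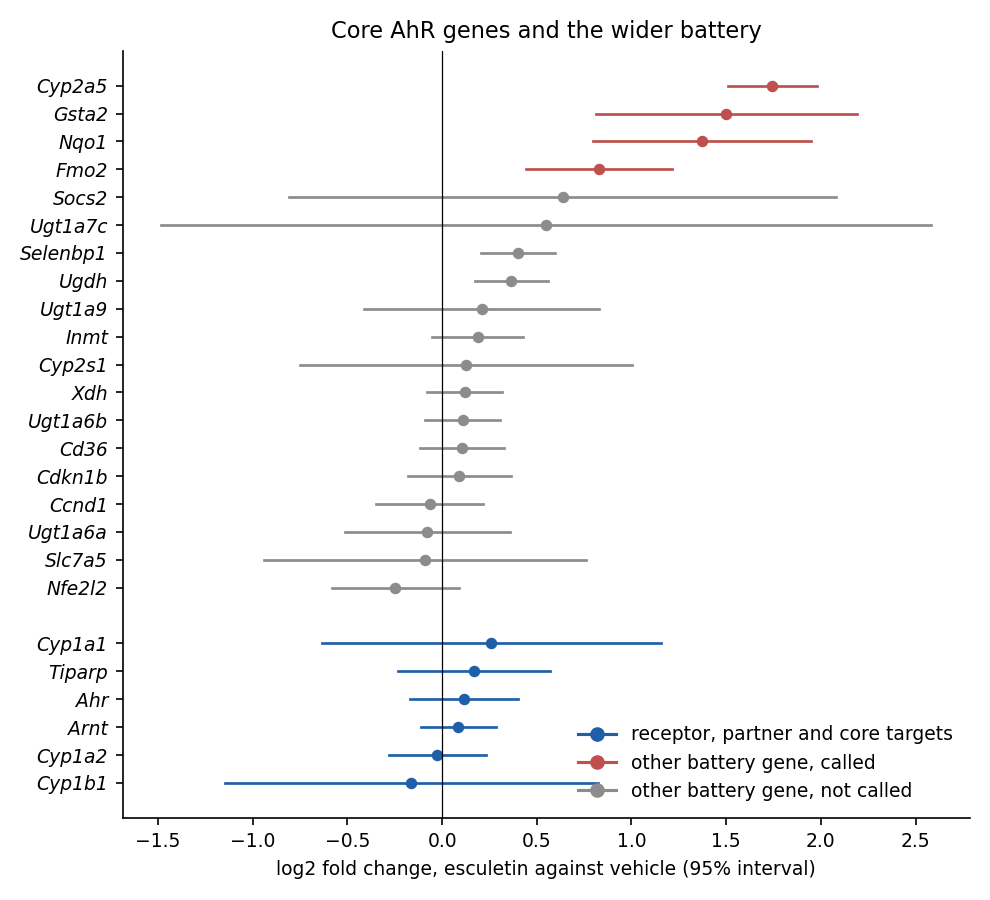
Log2 fold change of esculetin against vehicle with its 95% interval (horizontal axis) for the 6 members tested and 19 battery genes. Intervals of all 6 members include 0, and the 4 called genes drawn, Cyp2a5, Nqo1, Gsta2 and Fmo2, lie to the right of it, as do the uncalled genes Selenbp1 and Ugdh.

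**Figure D5:**
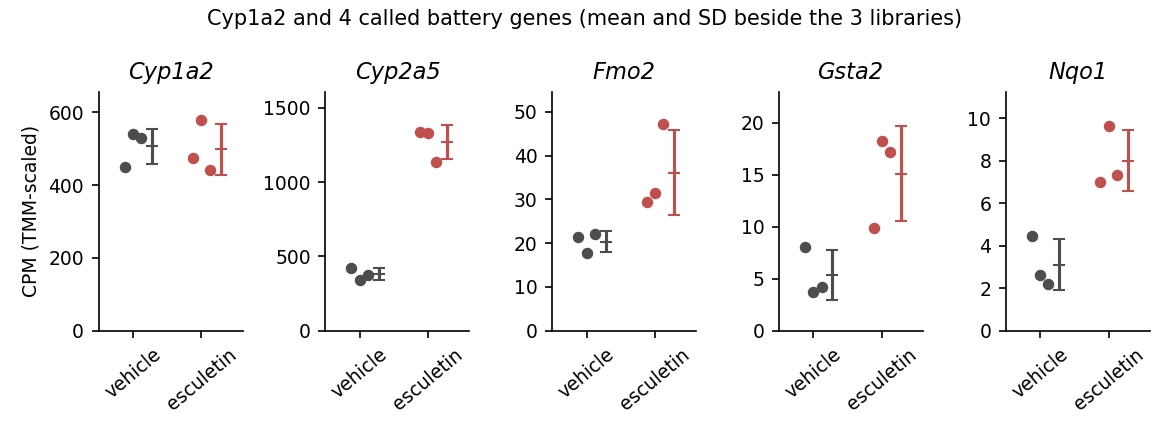
CPM in each library (points) with the group mean and SD (bars) for Cyp1a2 and 4 called battery genes, each panel on its own linear axis from 0. The groups overlap for Cyp1a2 (443 to 578 CPM) and do not overlap for the other genes, for example 342 to 422 CPM against 1138 to 1336 CPM for Cyp2a5.

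The other parts of the AhR machinery were described from lists of the same kind. Of 8 genes for the cytosolic complex and its chaperones, 8 were tested and 0 were called. The main HSP90 gene Hsp90ab1 was at 765 ± 44.9 CPM with vehicle and 793 ± 51.9 CPM with esculetin, and Hsp90aa1 at 283 ± 62.9 and 295 ± 21.0 CPM (SD, n = 3 each). Only Ptges3, which encodes the co-chaperone p23, had an unadjusted p under 0.05 in this list, at 119 ± 8.21 and 149 ± 12.8 CPM (SD, n = 3 each) and a log2 fold change of 0.33 (adjusted p = 0.224, edgeR's quasi-likelihood test). The list's median log2 fold change was 0.06.

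Of 12 coregulators of AhR, 12 were tested and 0 were called, with a median log2 fold change of -0.06. The corepressor gene Ncor1, the most abundant, was at 84.2 ± 1.31 and 82.2 ± 8.04 CPM (SD, n = 3 each). The coactivator gene Ncoa1 alone had an unadjusted p under 0.05, with 18.1 ± 0.328 and 14.0 ± 1.04 CPM (SD, n = 3 each) and a log2 fold change of -0.37 (adjusted p = 0.204, edgeR's quasi-likelihood test).

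Of 13 other partners of ARNT and relatives in its PAS-domain family, 5 were tested, 4 had 0 counts in every library, and 1 fell. This was Bmal2, a clock gene relative, at 1.16, 0.981 and 0.984 CPM with vehicle and 0.311, 0.519 and 0.298 CPM with esculetin, from 131 counts in all. Its groups did not overlap, and its log2 fold change was -1.46 (SE 0.38, adjusted p = 0.204, edgeR's quasi-likelihood test). The clock gene Clock had a log2 fold change of -0.25 (unadjusted p = 0.0317, edgeR's quasi-likelihood test) and was not called. The hypoxia-inducible factor genes Epas1 and Hif1a, which use the same partner ARNT, were at 154 ± 0.830 and 169 ± 11.3 CPM and at 50.7 ± 2.96 and 49.8 ± 1.53 CPM (SD, n = 3 each), and neither passed the test. The list's median log2 fold change was -0.18.

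Cyp1a2 is known to be expressed most in hepatocytes around the central vein, so genes of the liver zones were read beside it. Of 12 pericentral genes, 12 were tested and 1 fell, Axin2, a target of WNT signalling. It was at 4.70, 4.91 and 3.57 CPM with vehicle and 2.08, 2.33 and 2.80 CPM with esculetin, with a log2 fold change of -0.87 (SE 0.21, adjusted p = 0.172, edgeR's quasi-likelihood test). Over the alternatives the adjusted p of Axin2 lay between 0.0187 and 0.511, on both sides of 0.05, and DESeq2 gave 0.0328. The abundant pericentral genes Cyp2e1 and Glul were at 7411 ± 426 and 8391 ± 877 CPM and at 1026 ± 71.5 and 926 ± 60.6 CPM (SD, n = 3 each), and neither passed the test. The median log2 fold change was 0.02 for the pericentral list and 0.11 for 12 periportal genes, of which 0 were called. In that second list 2 genes, Pigr and Cdh1, had an unadjusted p below 0.05 (edgeR's quasi-likelihood test).

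Markers of other liver cells were also counted. Of the 5 Kupffer cell markers 0 were called and all 5 had lower means with esculetin, with a summed level of 256 to 350 CPM with vehicle and 267 to 276 CPM with esculetin. Of the 5 markers of sinusoidal endothelium 0 were called, at 153 to 190 and 159 to 187 CPM in sum. Of the 5 stellate cell markers 1 was called, Des (log2 fold change 0.69), with sums of 302 to 349 and 276 to 366 CPM, while 3 of the 5 had lower means with esculetin and the list's median log2 fold change was -0.016. Of the 5 cholangiocyte markers 1 was called, Spp1 (log2 fold change -0.75), with sums of 39.5 to 80.3 and 30.3 to 45.6 CPM that were mostly Spp1, while the other 4 had higher means with esculetin and the list's median was 0.24. Of 4 neutrophil markers 2 were tested and S100a9 (log2 fold change 0.99) was called, and of 5 lymphocyte markers 4 were tested and Cd79a (1.12) was called, with sums of at most 4.54 CPM in any library, and Ly6g was at 0. Of 4 adipocyte markers only 1, Cidec, was tested and it was not called, with Lep at 0 and sums of at most 2.55 CPM. The part of these cells in the values of the members was not tested.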

How the data were processed

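Liver RNA libraries were made with the NEBNext Ultra kit and sequenced as paired ends. Alignment to GRCm39 was done by the authors with HISAT2 2.2.1 and counting by gene with featureCounts, and the deposited values are raw whole-number counts. The submitters' processing notes list mm10 beside GRCm39. The sources used here do not give the annotation release, the strand setting or how multi-mapping reads were handled. The columns were matched to vehicle and esculetin replicates by their names and the labels.

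Symbols and coordinates came from GENCODE vM39, which held 54749 of the 55357 identifiers. Genes were filtered with filterByExpr, scaled by TMM and tested in edgeR 4.0.16 (quasi-likelihood; R 4.3.3), with Benjamini-Hochberg adjustment over 14433 genes. Each standard error is the absolute log2 fold change over the root of its F statistic. The edgeR p-values set the difference between groups against the spread between libraries, each a pool of 2 mice. edgeR's estimate of that spread for a gene also draws on the other genes. Total counts lay between 27957713 and 34920922 per library, and the biological coefficient of variation was 14.6%. DESeq2 1.42.0, limma-voom (limma 3.58.1), other scalings and filters, a replicate block and the omission of each library were alternatives. The test was also run on counts simulated with the spread that edgeR estimated from these data. The outcome of that run is not reported here and gives no independent support for the calls.

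All 7 members were named whatever their result. Of each gene list, called genes and up to 2 abundant genes were to be named. Genes outside this rule (unadjusted p under 0.05 alone, and genes described for 1 library or for low counts) were chosen after seeing the values. Of the called battery genes 1 is not reported here. The members and lists were chosen with earlier results of these data known. Sequences are those of the RefSeq promoter table of GRCm38.p6, placed on GRCm39 by exact match, with longer windows read from GRCm39. An entry was matched for 6 of 7 members, and Ahr was not matched.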

Additional observations from a re-analysis of the deposited data

How the results depend on the processing

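With every alternative the members tested gave 0 calls and 0 adjusted p-values under 0.05. Ahrr was tested only without the filter on low counts, with an adjusted p of 0.875 in edgeR. With all 6 libraries the direction of each tested member was kept in the 7 alternatives. With 1 library left out, the log2 fold change ranged from -0.039 to 0.24 for Ahr, from -0.030 to 0.64 for Cyp1a1, from -0.14 to 0.055 for Cyp1a2 and from -0.64 to 0.057 for Cyp1b1, so these directions rest on single libraries. The sign turned without esculetin replicate 1 for Ahr, without vehicle replicate 1 or esculetin replicate 2 for Cyp1a1, without vehicle replicate 2 or 3 or esculetin replicate 1 or 3 for Cyp1a2, and without esculetin replicate 2 or 3 for Cyp1b1. Arnt (0.0064 to 0.14) and Tiparp (0.029 to 0.33) kept theirs. Still, Arnt fell from 0.086 to 0.0064 without esculetin replicate 3, and Tiparp fell from 0.17 to 0.029 without vehicle replicate 3. The Cyp1a1 to Cyp1a2 difference ranged from 0.098 to 0.61 on the log2 scale.

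Over all genes tested, 452 were called, and 776 without the filter on low counts. The number with an adjusted p under 0.05 was 6, against 193 with DESeq2, 477 without the filter and 2 to 45 with 1 library left out (2 without vehicle replicate 2, 45 without vehicle replicate 1, 15 without vehicle replicate 3). The cause was not tested. With the replicate number as a block this number was 15, with 399 genes called. The labels give the numbers no shared animal and the libraries of a number did not deviate together (correlations of -0.062, 0.0025 and -0.0029), so the numbers were not taken as pairs. In the 8 pathway lists, drawn up with earlier results known, 7 of 98 genes tested were called (7.14%, beside 3.13% of all genes tested), and 8 to 11 with 1 library left out. The 7 were all among these in each case, and the 11 without vehicle replicate 1 added Aox3, Gsta1, Lgr5 and Oat. With at least 10 counts in every library 6 were called, since fewer genes were then tested. The low counts of Cyp1a1, Cyp1b1 and Ahrr limit what could be detected.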

Other observations

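Tryptophan metabolism makes known AhR ligands such as kynurenine, and its genes were listed as well. Of 18 genes, 15 were tested and 0 were called, with a median log2 fold change of 0.06. Tdo2, which opens the pathway in hepatocytes, was at 2666, 2865 and 2949 CPM with vehicle and 3160, 2960 and 3133 CPM with esculetin, with an unadjusted p of 0.144 in edgeR's quasi-likelihood test, although the groups did not overlap. Ido1 and Tph1 had 0 counts in every library. An unadjusted p under 0.05 was reached by 4 genes, in both directions. The log2 fold changes were 0.44 for the formamidase gene Afmid and 0.34 for the aldehyde oxidase gene Aox1, and -0.42 for the aminotransferase gene Aadat and -0.52 for the aldehyde oxidase gene Aox3. Aox3 was at 1091, 1420 and 1276 CPM with vehicle and 825, 829 and 982 CPM with esculetin, without overlap (adjusted p = 0.152, edgeR).

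Of 16 hypoxia genes that ARNT drives with the hypoxia-inducible factors, 14 were tested and 0 were called, with a median log2 fold change of 0.04. By edgeR's test 4 of them had an unadjusted p below 0.05, with log2 fold changes of -0.43 for Vegfa and -0.37 for Egln3 and of 0.39 for Bnip3 and 0.38 for Ndrg1. Ldha, the most abundant of the list, was at 656 ± 25.5 and 644 ± 42.5 CPM (SD, n = 3 each).

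A single library stood apart for Socs2, a battery gene that was not called with the filter and all 6 libraries. It was at 28.2 CPM in esculetin replicate 3 and at 3.49 to 9.33 CPM in the other libraries. The other esculetin libraries, at 4.63 and 3.49 CPM, lay below every vehicle library. Socs2 was called without the filter, and also with esculetin replicate 3 left out. Gsta1 was at 0.068, 0 and 0.109 CPM with vehicle and 0.311, 2.22 and 0.328 CPM with esculetin, without overlap. It did not pass the filter on low counts with all 6 libraries, but was tested and called without the filter and with vehicle replicate 1, 2 or 3 or esculetin replicate 1 left out. These values were picked after they were seen.

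The genes whose log2 CPM was most like that of Cyp1a1 over the 6 libraries, among 12175 genes, were Hspa12a (Pearson r 0.987), Scarb1 (0.979) and Ndufaf3 (0.972). Those most like Cyp1a2 were Slc11a2 (0.979), Dnajc4 (0.964) and Plod1 (0.962). They are the highest of many correlations over 6 libraries and are given as a description.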
